A study of Mus musculus with 2 samples.

Results

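The transcripts described here are the noncoding hosts of small nucleolar RNAs (snoRNAs), measured in mouse embryonic stem cells (mESCs) after depletion of AIMP3. The set holds 7 genes, *Gas5*, *Snhg1*, *Snhg3*, *Snhg5*, *Snhg6*, *Snhg8* and *Snhg12*, and a gene was measured when the array listed a probe under a RefSeq accession of that gene. By this rule 5 of the 7 genes were found, with 1 probe each and 1 spot per probe, among 55681 probes on the array and 24031 genes tested. None of the accessions that the RefSeq table gives for *Gas5* and *Snhg8* matched a probe name (0 probes), and both are not analysed here. The array may hold them under names that this table does not list, so nothing is said of their presence on it. The rule used names only, so the measured values played no part in it.

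The cells carried loxP-flanked *AIMP3* alleles together with a Cre recombinase fused to a tamoxifen-responsive receptor (AIMP3f/f;cre-ERT2) and were derived from blastocysts. AIMP3-depleted cells received 2 μM tamoxifen (4-OHT) for 4 days in medium with LIF, as 2 replicates, and control cells of the same genotype received ethanol. Control RNA, a pool of 2 extracts, went onto both arrays with the dye Cy3 and counts as 1 sample, while each AIMP3-depleted RNA carried Cy5 on an array of its own. The labels place the cells on layers of mouse embryonic fibroblasts, and the study's methods name medium conditioned by such cells during drug treatment. The control cells had neither 4-OHT nor active Cre, and an effect of AIMP3 loss cannot be told apart from one of 4-OHT, of Cre or of the dyes, which were not swapped. The labels do not say whether the replicates were separate cultures. The p-values rest only on the spread between these 2 arrays, which limma takes in part from the probe itself and in part from all tested probes.

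snoRNAs guide the chemical modification and processing of ribosomal RNA, and most are cut out of the introns of longer transcripts. The spliced remainder of a noncoding host such as *Snhg1* or *Gas5* is exported to the cytoplasm, where it is engaged by ribosomes and destroyed by nonsense-mediated decay, a pathway that needs translation. Many such hosts start, like ribosomal protein mRNAs, in a 5′ terminal oligopyrimidine (TOP) tract, a run of C and T that links an RNA to growth signals through mTOR. Such RNAs are therefore known to accumulate when translation is blocked or growth stops, which is how *Gas5*, growth arrest-specific 5, got its name. AIMP3 belongs to the assembly of tRNA synthetases that supplies ribosomes with charged tRNAs.

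The sequences at the annotated starts of 4 of the 5 measured hosts, all but *Snhg6*, are shown because the TOP tract is the feature that ties this family to translation. Each line gives the strand of the gene from 15 bases before to 35 bases after the start, from RefSeq on GRCm38.p6. Capitals mark a C followed by at least 4 further pyrimidines, with the C within 10 bases of the start on either side.

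*Snhg1*, chr19:8723472-8723521, plus strand: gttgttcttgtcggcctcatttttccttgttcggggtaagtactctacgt

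*Snhg3*, chr4:132353652-132353701, minus strand: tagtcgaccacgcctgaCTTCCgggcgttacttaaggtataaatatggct

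*Snhg5*, chr9:88522863-88522912, minus strand: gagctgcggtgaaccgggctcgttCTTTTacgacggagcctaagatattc

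*Snhg12*, chr4:132308663-132308712, plus strand: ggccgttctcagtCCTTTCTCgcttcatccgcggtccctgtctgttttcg

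A tract by this definition was present at 3 of these 4 starts, against 29.7% of 32851 annotated mouse starts. The longest, of 8 bases, began 2 bases before the start of *Snhg12*, while that of *Snhg5* began at base 10 after the start. *Snhg1* has a run of pyrimidines near its start that opens with T. It did not count because its first C is followed by fewer than 4 further pyrimidines. The E-box CACGTG, the binding sequence of MYC and related factors, was in 0 of the 4 stretches of 300 bases, read on 1 strand since it is its own reverse complement, and in 7.15% of all starts. The matches are descriptions of the sequence.

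The introns of the hosts hold different snoRNAs. *Snhg1* contains 8 annotated snoRNA genes, among them *Snord22*, and *Snhg12* contains 4 (*Snora16a*, *Snora44*, *Snora61* and *Snord99*). *Snhg3* holds *Snora73a* and *Snora73b*, *Snhg6* holds *Snord87*, and *Snhg5* holds 2 snoRNA genes that the table lists by locus number only. None of these snoRNAs had a probe (0 probes), so the arrays report the spliced or unspliced host and not the snoRNAs.

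The hosts were bright on the arrays. The *Snhg3* probe gave a median intensity of 23709 and 25009 in the control channel of the arrays of replicates 1 and 2, and of 41805 and 37947 in the AIMP3-depleted channel. The *Snhg6* probe gave 30457 and 31204 in the control channel and 55360 and 49138 in the AIMP3-depleted channel. The *Snhg12* probe gave 7771 and 7990 in the control channel and 12317 and 11387 in the AIMP3-depleted channel. All 5 probes were well above background in all 4 channels, and none was saturated or marked as an outlier.

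The *Snhg1* probe gave 3678 and 3747.5 in the control channel and 5803 and 4889.5 in the AIMP3-depleted channel. The *Snhg5* probe was the dimmest, with 1126 and 1172 in the control channel and 1634 and 1466.5 in the AIMP3-depleted channel, between 24.9 and 27.3 times its local background. Before normalization Cy5 was thus the brighter dye for every host, by 1.45-fold to 1.82-fold for replicate 1 and by 1.25-fold to 1.57-fold for replicate 2. With the tested probes split by brightness into 5 equal groups, the median of the brightest group was likewise 1.77-fold and 1.48-fold, so the raw intensities carry a difference between the dyes that the hosts share with other probes.

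**Figure D1:**
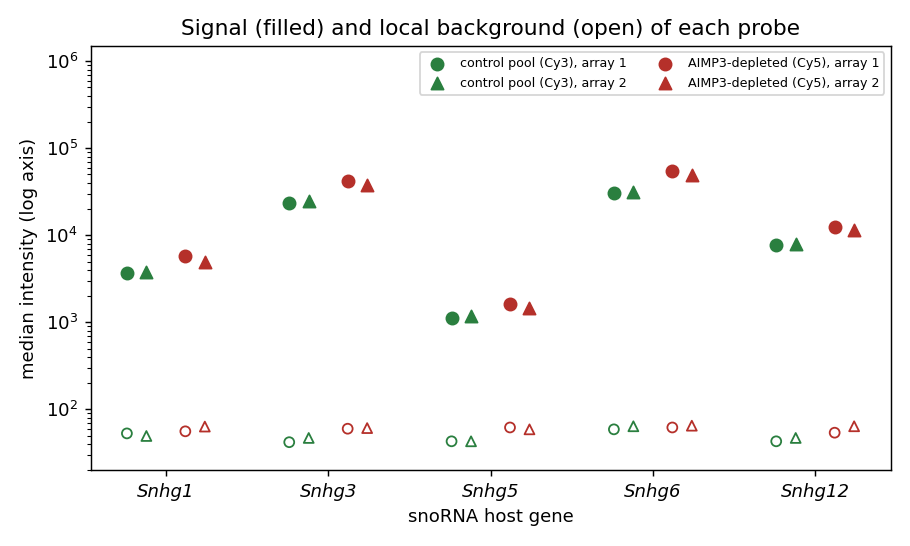
Median spot intensity (filled) and local background (open) of the 5 snoRNA host probes, on a log axis, in the control pool (Cy3, green) and in AIMP3-depleted mESCs (Cy5, red), with circles for the array of replicate 1 and triangles for that of replicate 2. Every probe lies far above its background in each channel, and Cy5 is the brighter dye for all 5 before normalization.

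After background correction and loess normalization within each array, the 5 hosts stayed near their control level in AIMP3-depleted mESCs. Their log2 ratios of AIMP3-depleted over control lay between -0.20 and 0.00057 over the 10 values, and the mean over both arrays was below 0 for all 5 hosts, with a median of -0.066. With a change defined as over 1.5-fold with an unadjusted p under 0.05 by limma, 0 of the 5 probes changed, against 5.71% of the 33022 tested probes (4.97% higher and 0.745% lower). At any fold, 1 of the 5 was lower and 0 were higher with an adjusted p under 0.05, against 50.5% of the tested probes (22.8% lower and 27.7% higher). The same 1 had an unadjusted p under 0.05, against 57.7% of the tested probes. Counted by gene, with the brightest probe for each, the shares were 6.32% changed, 51.8% with an adjusted and 58.9% with an unadjusted p under 0.05. The negative sign depended on the dye normalization: with median centring in place of loess all 5 means were above 0, and with the scanner software's own normalization *Snhg3* and *Snhg6* were.

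*Snhg5*, the host of a box C/D snoRNA pair, was the lowest. Its log2 ratio was -0.20 for replicate 1 and -0.15 for replicate 2. The mean of -0.17 ± 0.039 (SD, n = 2) corresponds to 0.886 of the control level, with a 95% interval from limma of 0.818 to 0.960 (limma, Benjamini-Hochberg adjusted p = 0.0235 over all tested probes). The adjusted p was 0.0719 without a filter on dim probes, 0.0635 in the authors' table and 0.789 with median centring, and the methods' t-test gave an unadjusted p of 0.0999. The ratio was 0.025 with median centring, when the median of all tested probes was 0.16. Relative to the median of all tested probes *Snhg5* was lower under each of the 5 normalizations tried, by between 0.13 and 0.18 on the log2 scale. These 5 are not independent of each other. The authors' table is the scanner software's ratio plus a nearly constant shift, and the setting without background subtraction also uses loess. Among all tested probes, 55.5% had a smaller ratio in absolute size.

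*Snhg1*, the host of the *Snord22* cluster, was next. Its log2 ratio was -0.094 and -0.11 on the arrays of replicates 1 and 2. The mean was -0.10 ± 0.013 (SD, n = 2), or 0.931 of the control level with a 95% interval of 0.861 to 1.01 (adjusted p = 0.108 by limma). Both arrays lay on the same side of 0, but the interval just reached it.

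*Snhg12* had a log2 ratio of -0.12 for replicate 1 and of -0.014 for replicate 2. Its mean of -0.066 ± 0.073 (SD, n = 2) was smaller than the difference between the arrays, which was the largest among the 5 hosts. The 95% interval ran from 0.878 to 1.04 of the control level (adjusted p = 0.315 by limma).

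*Snhg3* and *Snhg6*, the brightest of the 5 probes, were closest to 0. The log2 ratio of *Snhg3* was -0.077 and -0.031 on the arrays of replicates 1 and 2, with a mean of -0.054 ± 0.032 (SD, n = 2) and an interval of 0.890 to 1.04 of the control level (adjusted p = 0.377 by limma). That of *Snhg6* was -0.058 and 0.00057, with a mean of -0.029 ± 0.042 (SD, n = 2) and an interval of 0.905 to 1.06 (adjusted p = 0.640 by limma). *Snhg6* was the host with opposite signs on the arrays.

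All 5 intervals lay within 1.5-fold in both directions. Their width draws on the spread between the 2 arrays of all tested probes and not only on that of the host itself. The intervals do not cover the spread between control cultures, since the control was 1 pool, nor a dye difference particular to a probe. In bulk RNA, fewer cells with a transcript and less of it per cell cannot be told apart.

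**Figure D2:**
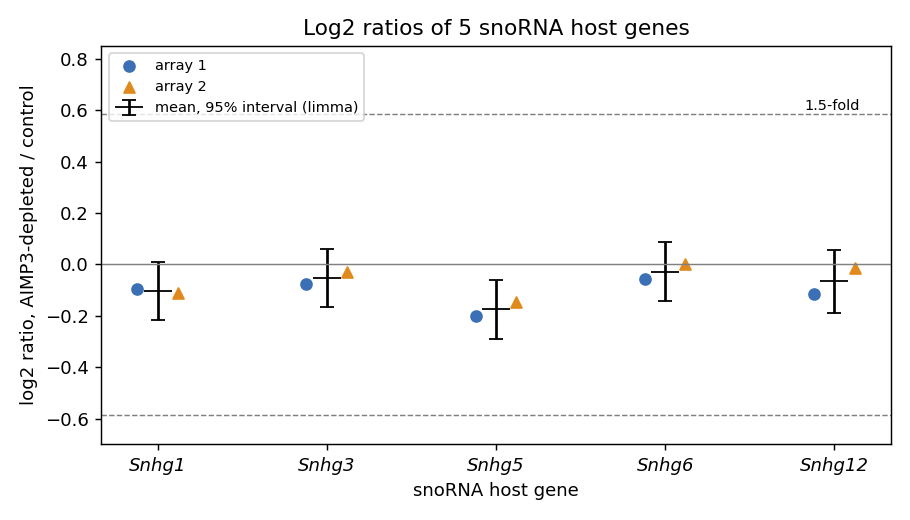
Log2 ratio of AIMP3-depleted over control mESCs for the 5 measured snoRNA hosts after loess, with circles for the array of replicate 1, triangles for that of replicate 2, and the mean with its 95% interval from limma in black. The dashed lines mark 1.5-fold, which no interval reaches, and the interval of *Snhg5* is the one that excludes 0.

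In order from the lowest mean ratio, the hosts were *Snhg5*, *Snhg1*, *Snhg12*, *Snhg3* and *Snhg6*. Neighbours in this order differed by little. *Snhg5* was below *Snhg1* by 0.071 ± 0.052 (SD over the 2 arrays), and *Snhg1* was below *Snhg12* by 0.038 ± 0.085, which is less than the spread. *Snhg3* exceeded *Snhg12* by 0.012 ± 0.040. The ends of the order were further apart, with *Snhg5* below *Snhg6* by 0.14 in replicate 1 and by 0.15 in replicate 2. The 10 pairs were compared without a test. The order of the mean ratios is the same as that of the intensities in both channels on both arrays, from *Snhg5*, the dimmest probe, to *Snhg6*, the brightest. Neither array alone gave this order of ratios. *Snhg12* (-0.12) was below *Snhg1* (-0.094) for replicate 1, and *Snhg3* (-0.031) was below *Snhg12* (-0.014) for replicate 2.

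**Figure D3:**
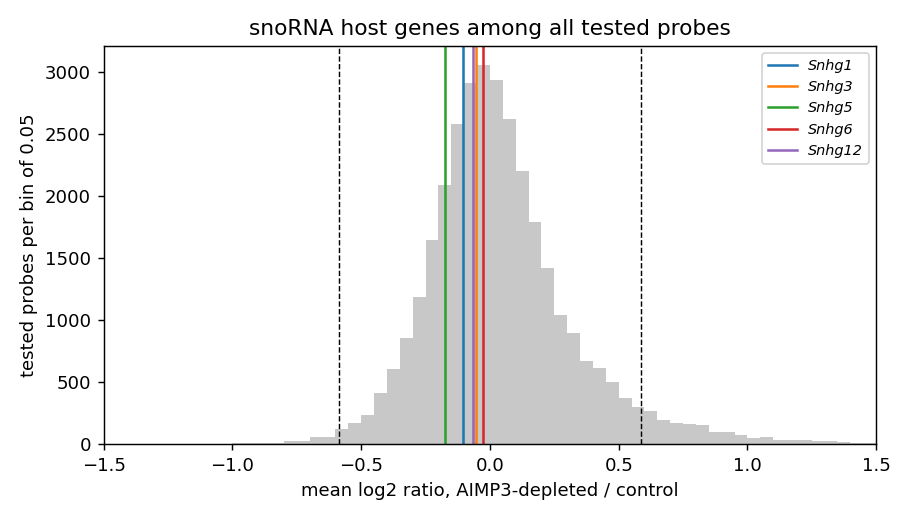
Mean log2 ratio of all 33022 tested probes in bins of 0.05 (grey), with a coloured line at the mean of each of the 5 snoRNA hosts and dashed lines at 1.5-fold. The hosts lie between -0.17 and -0.029, below the median of 0.0069, and 19.6% (*Snhg5*) to 43.4% (*Snhg6*) of tested probes had a lower ratio.

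The hosts were then compared under other ways of balancing the dyes. Of the 5 hosts, 4 lay in the brightest of these 5 groups and *Snhg5* in the next. In the brightest group the median log2 ratio was -0.011 after loess, -0.036 with the signals normalized by the scanner software and 0.30 with median centring, where no trend with intensity is removed. With median centring the hosts were at 0.025 (*Snhg5*), 0.12 (*Snhg1*), 0.19 (*Snhg12*), 0.31 (*Snhg3*) and 0.36 (*Snhg6*), and 3 of the 5 (*Snhg3*, *Snhg6* and *Snhg12*) had an adjusted p under 0.05 by limma, as did 58.8% of all tested probes under that setting. Relative to the median of all tested probes these values ranged from -0.13 for *Snhg5* to 0.21 for *Snhg6*. With the scanner software's signals the hosts ranged from -0.20 for *Snhg5* to 0.035 for *Snhg6*, and in the authors' deposited table from -0.16 to 0.075. No host passed 1.5-fold under any of the 5 normalizations (0 of 5 each time), when between 5.71% and 11.3% of all tested probes did, and *Snhg1* and *Snhg5* stayed below the median of all tested probes under each of them.

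**Figure D4:**
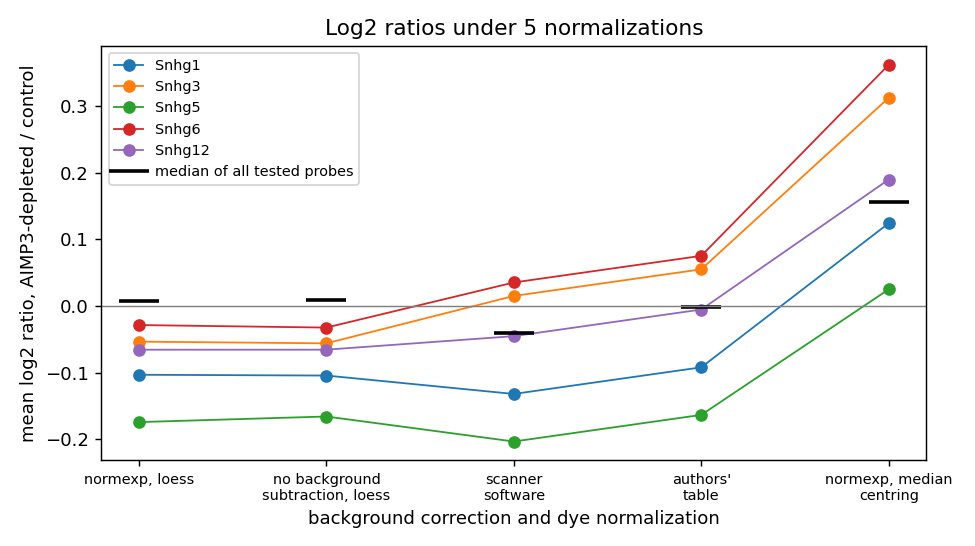
Mean log2 ratio over both arrays of the 5 snoRNA hosts under 5 combinations of background correction and dye normalization, with the median of all tested probes as black bars. The order from *Snhg5* to *Snhg6* is kept throughout, while the hosts move together from below 0 after loess to between 0.025 and 0.36 with median centring.

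Other noncoding snoRNA hosts were close to the control level too. Of 16 further hosts 8 were measured, 0 changed past 1.5-fold, against 6.32% of all genes tested, and their median log2 ratio was -0.035, against 0.016 for all genes. *Snhg15* had the largest ratio, with 0.30 and 0.24 on the arrays of replicates 1 and 2 (mean 0.27 ± 0.038, SD, n = 2; adjusted p = 0.00453 by limma), and was above 0 under each of the 5 normalizations. It was the only one of these 8 with an adjusted p under 0.05 after loess, against 51.8% of all genes. With median centring it passed 1.5-fold at 0.68, when 11.8% of all genes rose past that fold.

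snoRNAs also sit in the introns of protein-coding genes, mostly those of ribosomal proteins and translation factors that share the TOP tract. Of 38 such hosts, all 38 measured, 2 rose past 1.5-fold and 0 fell, against 5.53% and 0.791% of all genes (4 passed the fold without replicate 2, and 1 by the methods' t-test), and at any fold 16 were higher and 7 lower with an adjusted p under 0.05 by limma, against 29.4% higher and 22.4% lower among all genes. Among those that rose was *Rpl23*, which encodes a ribosomal protein, at 0.76 ± 0.021 (SD, n = 2). Another probe of *Rpl23* was at -0.0067, so the rise belongs to its brightest probe. The list depended on the dye normalization more than the noncoding hosts did. Its median was 0.11 after loess, -0.038 with the scanner software's signals, when 0 of the 38 and 8.07% of all genes rose past 1.5-fold, and 0.58 with median centring, when 19 of the 38 and 11.8% of all genes did.

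Genes for the proteins that bind snoRNAs were lower in part. Box C/D snoRNAs, which guide methylation, are bound by fibrillarin and its partners, and of 11 genes for this complex and its assembly 0 passed 1.5-fold, 5 were lower and 2 higher with an adjusted p under 0.05 by limma, against 22.4% lower and 29.4% higher among all genes. *Fbl*, which encodes fibrillarin, had the largest ratio, with -0.53 and -0.49 on the arrays of replicates 1 and 2 (mean -0.51 ± 0.026, SD, n = 2; adjusted p = 0.000409 by limma), and was below 0 under each of the 5 normalizations. Box H/ACA snoRNAs, which guide pseudouridylation, are bound by dyskerin and its partners, and of 7 genes 4 were lower and 0 higher, against the same shares. These counts turned with median centring, to 1 lower and 6 higher for box C/D and to 0 lower and 3 higher for box H/ACA, when 8.23% of all genes were lower and 53.3% higher. *Nop10* was at -0.34 ± 0.045 (SD, n = 2) after loess and at -0.0097 with median centring (limma adjusted p = 0.919). The medians of both lists, -0.097 and -0.17, became 0.19 and 0.11 with median centring, when that of all genes was 0.18.

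Genes of nonsense-mediated decay, which degrades the spliced hosts, had small ratios at the RNA level. Of 20 factors 19 were measured, 0 passed 1.5-fold, 5 were lower and 2 higher with an adjusted p under 0.05 by limma, against 22.4% lower and 29.4% higher among all genes, and the median was -0.025. With median centring 1 was lower and 11 were higher, near the 8.23% and 53.3% of all genes under that setting, and the median was 0.20. *Rbm8a*, a core protein of the exon junction complex that marks its targets, had the largest ratio, at -0.48 ± 0.058 (SD, n = 2), and was below 0 under each normalization. Of 10 protein-coding transcripts known to be sensitive to this decay, 3 rose and 2 fell past 1.5-fold, against 5.53% and 0.791% of all genes. The list was chosen with earlier results of these data known, so its counts are descriptive only. The stress-induced transcription factors *Atf3* (1.27) and *Ddit3* (0.89) and the polyamine enzyme *Sat1* (0.97) rose, while *Upp1* (-1.24), a uridine phosphorylase, and *Tbl2* (-0.67) fell, each with the same sign under the 5 normalizations. Another probe of *Tbl2* was at -0.35, within 1.5-fold. With median centring 5 rose and 1 fell, against 11.8% and 0.266% of all genes, and *Tbl2*, at -0.46, no longer passed 1.5-fold.

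Of 15 genes for regulators of TOP RNAs 0 passed 1.5-fold, and 4 were lower and 3 higher with an adjusted p under 0.05 by limma, against 22.4% and 29.4% of all genes. With median centring 2 passed 1.5-fold, *Pabpc1* at 0.93 and *Rheb* at 0.60, and 11 were higher, when 11.8% of all genes rose past that fold and 53.3% were higher. After loess *Pabpc1*, which encodes the poly(A)-binding protein and itself has a TOP tract, had the largest ratio at 0.40 ± 0.094 (SD, n = 2), above 0 under each normalization. *Gas5* RNA is known to bind the glucocorticoid receptor. Of the receptor gene *Nr3c1* and 7 of its targets, 1 gene, the phosphatase *Dusp1*, rose past 1.5-fold at 0.90 ± 0.011 (SD, n = 2), and 0 fell, against 5.53% and 0.791% of all genes. The count was 2 in the authors' table and with median centring, when 8.85% and 11.8% of all genes rose. At any fold 4 were higher and 2 lower with an adjusted p under 0.05 by limma, against 29.4% and 22.4% of all genes. *Nr3c1* was at 0.48 ± 0.074 (SD, n = 2), while the lower genes were *Fkbp5*, a co-chaperone of the receptor, at -0.38 ± 0.015 (SD, n = 2) and the clock gene *Per1* at -0.15 ± 0.034 (SD, n = 2), which was at 0.075 with median centring.

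**Figure D5:**
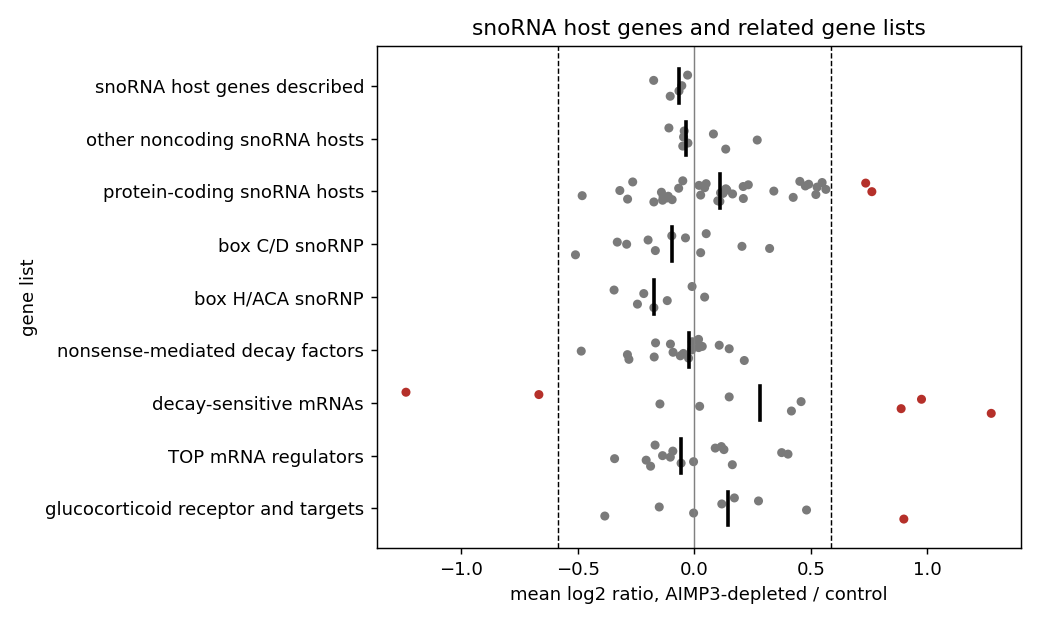
Mean log2 ratio over both arrays of each measured gene, 1 probe per gene, for the 5 snoRNA hosts and 8 related lists, after loess. Red points passed 1.5-fold with an unadjusted p under 0.05, black bars are list medians, and the dashed lines mark 1.5-fold. The noncoding hosts are the 2 top lists, with no red point, and the decay-sensitive mRNAs spread furthest, from -1.24 to 1.27.

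The protein-coding genes beside each host were read next, since a host and its neighbour can share a promoter region. Beside *Snhg1*, *Slc3a2*, an amino acid transporter subunit, was at -0.087 ± 0.021 (SD, n = 2) and *Wdr74* at -0.094 ± 0.022 (SD, n = 2), against -0.10 for the host. With median centring they were at 0.31 and 0.13, against 0.12 for *Snhg1*. Beside *Snhg3*, *Rcc1*, the exchange factor of the GTPase Ran, was at -0.26 ± 0.037 (SD, n = 2; adjusted p = 0.00496 by limma) and *Phactr4* at 0.18 ± 0.043 (SD, n = 2; adjusted p = 0.0209 by limma). *Rcc1* was at 0.0068 with median centring, against 0.31 for *Snhg3*, and so remained the lower of the pair.

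Beside *Snhg5*, *Syncrip*, an RNA-binding protein, was at -0.41 ± 0.088 (SD, n = 2; adjusted p = 0.00132 by limma) by its brightest probe and at 0.068 by another, and *Zfp949* was at 0.023 by its brightest probe and at 0.20 by another. *Trnau1ap* and *Rab42*, which flank *Snhg12*, were at 0.077 and 0.23, with another probe of *Trnau1ap* at -0.11. *Sgk3*, on 1 side of *Snhg6*, was at 0.47 by its brightest probe and at 0.060 by another. After loess 0 of the 9 measured neighbours of the 5 hosts passed 1.5-fold, against 6.32% of all genes, and with median centring 1 did, *Sgk3* at 0.70, when 11.8% of all genes rose past that fold and 0.266% fell. *Prss12*, the neighbour of the unmeasured *Snhg8*, rose with 0.84 and 0.88 on the arrays (mean 0.86 ± 0.029, SD, n = 2; adjusted p = 8.56e-05 by limma). Around *Gas5*, *Zbtb37* overlaps the locus and was at -0.14 by its brightest probe and at 0.20 by another, and the flanking *Serpinc1* and *Cenpl* were at 0.44 and 0.032. *Serpinc1* passed 1.5-fold with the scanner software's signals (0.96) and in the authors' table (1.00). Under these settings 8.07% and 8.85% of all genes rose past that fold.

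The targeted gene, *Eef1e1*, which encodes AIMP3, was at -0.90 ± 0.0066 on the log2 scale (SD, n = 2; limma adjusted p = 7.72e-05) and at -0.68 with median centring. Of 10 markers of embryonic stem cells all 10 were well above background in the control channel, and 1 (*Tdgf1*, at -0.59) fell past 1.5-fold, against 0.791% of all genes. This call was lost with the scanner software's signals (-0.55), in the authors' table (-0.51) and with median centring (-0.20), when *Dppa5a* passed instead, upward at 1.03, as did 11.8% of all genes. At any fold 6 of the 10 were lower, among them *Sox2* at -0.53, *Pou5f1* at -0.48 and *Nanog* at -0.38 (0.064 by another probe), and 2 were higher, *Dppa5a* at 0.50 and *Tfcp2l1* at 0.33 (0.11 by another probe), with an adjusted p under 0.05 by limma, against 22.4% lower and 29.4% higher among all genes. Their median was -0.22 after loess and 0.071 with median centring, and their summed level was 263236 and 273503 in the control channel and 296237 and 302558 in the AIMP3-depleted channel. Markers of other cells passed 1.5-fold. Of 8 fibroblast markers 7 were measured and 5 rose (3 by the methods' t-test), against 5.53% of all genes, with the collagen genes *Col1a1* at 1.06, *Col1a2* at 1.04, *Col3a1* at 0.95 and *Col6a1* at 0.81, *Lum* not tested, and a summed level of 20410 and 19997 in the control channel against 37155 and 35743. All 8 of 8 primitive endoderm markers rose (5 by the methods' t-test), with *Sox17* at 1.44, *Foxa2* at 1.38, *Sparc* at 1.24 and *Gata6* at 1.20, and their summed level was 124880 and 134832 against 286833 and 300055. The part of these cells in the host ratios was not tested.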

How the data were processed

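Agilent Mouse GE 8 × 60K arrays were read by the authors with Feature Extraction (11.5.1.1 per the file headers). The deposited files hold the median intensity of each spot and of its background, processed intensity, a log10 ratio of Cy5 over Cy3 and flags of the scanner software (0 or 1, in other columns). GeneSpring gave the log2 ratios in the table that the authors deposited, equal to that ratio plus 0.040 and 0.039 within 0.01 for 99.8% of tested probes on each array. Its column medians were 0.091 and 0.11.

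Median signals were background-corrected (normexp, offset 50), normalized by loess within each array, and averaged over the spots of a probe without outlier flags. A probe was kept when, on each array, Cy3 or Cy5 or both exceeded background by the scanner's flag, which left 33022 of 55681 for a test against 0 with limma (lmFit, eBayes; 5.28 prior degrees of freedom), with Benjamini-Hochberg adjustment over all of them. The brightest probe stood for a gene in the lists. Probes were named through RefSeq accessions (GRCm38.p6; 31014 spots), and the array was designed on another build, so coordinates are those of the RefSeq starts only.

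All members are named with every probe, with *Eef1e1*, the nearest protein-coding and the overlapping genes of each locus, and in each list up to 4 changed genes with the largest ratio, or the gene with the largest ratio where none changed. *Tbl2*, *Nr3c1*, *Fkbp5*, *Per1*, *Rheb* and the stem cell markers other than *Tdgf1* were added after their values were seen, and some genes that this rule names are not reported here. The members and lists were chosen with earlier results of these data known. The steps were tested on simulated data. Alternatives were other background corrections, normalizations, filters, probe rules, tests and thresholds, and each replicate left out. Median signal over background was 2.68 to 3.31. Precision is limited by having 2 arrays. Software was limma 3.58.1, jsonlite 2.0.0 and data.table version 1.17.8 in R 4.3.3.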

Additional observations from a re-analysis of the deposited data

How the results depend on the processing

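The count of hosts past 1.5-fold stayed at 0 of 5 under every alternative. The number with an adjusted p under 0.05 was 1 after loess (50.5% of all tested probes), 3 with median centring (58.8%), and 0 without a filter on dim probes (26.0%), in the authors' deposited table (37.6%) and by the methods' t-test, which had an unadjusted p as its threshold and gave 0 calls after Benjamini-Hochberg adjustment over all probes. Their median of -0.066 became 0.19 with median centring and -0.0055 in the authors' table, and ranged from -0.094 to -0.031 with 1 replicate left out. The sign turned to positive with median centring for *Snhg1* (0.12), *Snhg3* (0.31), *Snhg5* (0.025), *Snhg6* (0.36) and *Snhg12* (0.19). It turned with the scanner software's signals for *Snhg3* (0.015) and *Snhg6* (0.035), in the authors' table for *Snhg3* (0.055) and *Snhg6* (0.075), and for *Snhg6* without replicate 1 (0.00057, against -0.058 without replicate 2). Of 50 values of single hosts under an alternative, these were 10, and the other 40 kept their sign and stayed within 1.5-fold. The other filters, the probe rule and the methods' t-test leave a host's ratio unchanged by construction, so their values among the 40 repeat the main ones.

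Over all tested probes 1887 changed, against 3736 with the scanner software's signals, 3466 with median centring, 3743 in the authors' table, 1201 by the methods' t-test and 352 past 2-fold. The share of rises among them was 87.0% after loess, 68.4% with the scanner software's signals, 74.8% in the authors' table and 97.6% with median centring. Of the genes in the related and marker lists 22 changed, against 45 with median centring, 14 by the methods' t-test and 9 past 2-fold. The count of changed genes in a single list moved by over 1.5 times in 20 cases and stayed within that in 101. The cause was not tested, except that a higher fold and a test with 1 degree of freedom pass fewer probes by construction. With 1 array left out there is no test, and the fold alone was used. No paired analysis was possible because all replicates belong to 1 group and the control is 1 pool.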
